A study of Mus musculus with 18 samples.

Results

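Bone marrow plasma cells (BMPC) that lack Dnmt3a and Dnmt3b were compared by RNA-seq with BMPC that keep both genes. The members were 6 libraries of the 18 in the series, taken by their labels, 3 from Dnmt3-deficient mice and 3 from Dnmt3-sufficient littermates. Mice of both genotypes were homozygous for floxed alleles (Dnmt3a fl/fl and Dnmt3b fl/fl), so controls carried them as well. The former also carried a Cre allele that is active in the B lineage, and the latter did not. The strain was given as B6;129S4-Dnmt3atm3.1Enl Dnmt3btm5.1Enl/Mmnc, and by the methods the mice were from 8 to 12 weeks old when experiments began. All mice were sampled 30 days after immunization with phycoerythrin (PE), a fluorescent algal protein that serves as the antigen, and 5000 CD138+ cells of bone marrow were sorted for each library. Each genotype had 1 female and 2 males. Replicate 2 was the female of the Dnmt3-sufficient mice and replicate 1 that of the Dnmt3-deficient mice. Other cells of these mice keep the genes. Cells of the naive (nB) and germinal center (GCB) stages from mice of the same genotypes, 3 libraries for each of the 4 groups, served only for comparison. The nB were B220+ Fas- GL7- cells of lymph nodes from unimmunized mice, and the GCB were PE-binding B220+ Fas+ GL7+ cells.

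Plasma cells are the end stage of the B lineage. They switch off much of the B cell program under Prdm1 and Irf4, expand the endoplasmic reticulum (ER) under Xbp1 and secrete antibody, and those of bone marrow can persist for long periods. Dnmt3a and Dnmt3b place methyl groups on cytosines of CG dinucleotides that were unmethylated before, whereas Dnmt1 copies existing marks when DNA is replicated. A methylated promoter or enhancer is commonly silent, and the comparison asks which genes differ in RNA level once plasma cells have formed without the enzymes.

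Values are FPKM, the reads of a gene scaled by the length of its exons and by all reads on the listed genes of the library, and the reads themselves were recovered from them. Apart from Jchain and Igll1, immunoglobulin genes were not used here and levels are relative to a total without them. The 3 Dnmt3-sufficient BMPC libraries had 2196198, 3803197 and 3629318 reads in the order of their replicates, and the Dnmt3-deficient ones had 1632925, 1355231 and 2265945. Each nB and GCB library had 6692516 or more. Dnmt3-deficient replicates 1 and 2 were therefore shallower than every other library. When all libraries were thinned to 1355231 reads, 33.4% of the genes with 20 or more reads in a Dnmt3-sufficient BMPC library had none in another library of that group, and the share was 36.1% in Dnmt3-deficient BMPC. The corresponding shares were 3.19% and 1.72% in nB and 0.857% and 0.619% in GCB. At that depth, 8453, 7517 and 8350 genes were detected in the Dnmt3-sufficient BMPC libraries and 8766, 7096 and 7579 in the Dnmt3-deficient ones, a difference of -293 genes (exact permutation test, two-sided, p = 0.7, where 3 against 3 libraries cannot give a p under 0.1). Pooling of mice was stated for GCB and not for BMPC, and p-values measure the spread between libraries. The permutation test uses these 6 BMPC libraries. The test of single genes used below takes its spread from all 18 libraries, weighted by cell type, and not from BMPC alone.

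The libraries carried the markers of the plasma cell label. Of 20 genes of plasma cell identity, 19 had a read in all 6 libraries, among them Xbp1, Sdc1 (which encodes CD138, the protein used in the sort), Prdm1, Jchain and Tnfrsf17. Of 26 genes of B cell identity, 4 (Pax5, Cr2, Spib and Ciita) had 0 reads in all 6, while 11 had a read in all 6 and 7 had 20 or more, among them Cd79a and Cd79b of the B cell receptor. Their sum was 1844 to 2527 FPKM in BMPC, against 10262 or more in nB and 6165 or more in GCB. Transcripts of other bone marrow cells were also present, although the sort removed cells stained for CD11b, CD11c, CD90.2 or Ly6-G, which mark myeloid cells, T cells and neutrophils. The summed level of 10 erythroid markers was 6715, 6775 and 9956 FPKM in the Dnmt3-sufficient libraries and 6565, 3292 and 2636 in the Dnmt3-deficient ones, against at most 257 in nB and 19.9 in GCB. It was lower in each Dnmt3-deficient library, by a narrow gap for replicate 1. In bulk RNA, fewer cells of a type and less RNA per cell cannot be told apart.

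The floxed segments hold only the catalytic parts of the targeted genes, so sums over all exons do not check the deletion. Dnmt3a was at 0.768, 0 and 0.734 FPKM in Dnmt3-sufficient BMPC (19, 0 and 30 reads) and at 0.0544, 3.08 and 0.549 in Dnmt3-deficient BMPC (1, 47 and 14 reads). Dnmt3b was read 13, 0 and 0 times in the former and 0, 11 and 91 times in the latter. Reads of both varied from 0 or 1 upward between libraries of one genotype, and neither differed by the test (adjusted p = 1 and 0.983). Dnmt1, the maintenance enzyme, was at 13.3, 5.70 and 18.5 FPKM in Dnmt3-sufficient and 1.49, 3.58 and 6.17 in Dnmt3-deficient BMPC. The libraries with the nearest values, 5.70 and 6.17, overlapped, and the difference of -1.51 on the log2(FPKM + 1) scale did not pass (adjusted p = 0.697).

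Between the genotypes of BMPC, 17 of 11522 genes passed the test. The test was limma on log2(FPKM + 1) over all 18 libraries with a weight for each cell type, and a gene passed at a Benjamini-Hochberg adjusted p of 0.05 or less with a difference of at least 1. These are 0.148% of the genes tested. Of them, 7 rose in Dnmt3-deficient BMPC (0.0608%) and 10 fell (0.0868%). With median of ratios scaling in place of the library total, 8 rose and 7 fell. All 17 separated the genotypes without overlap, and 16 had 20 or more reads in every library of one genotype only. In 10 of them, all 3 libraries of the other genotype held 3 reads or fewer. When the 6 BMPC libraries were fitted alone with limma, 0 genes passed, 688 had an unadjusted p under 0.05 and the smallest adjusted p was 0.647. Without weights 459 genes passed, and without Dnmt3-deficient replicate 1, 47 did.

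Of the 7 genes that rose, Btla and Tnip1 have known roles in immune signaling. Btla, an inhibitory receptor of lymphocytes, was at 0.704, 0 and 0.256 FPKM in Dnmt3-sufficient BMPC and at 13.6, 47.2 and 4.64 in Dnmt3-deficient BMPC, which is 72, 207 and 34 reads against 5, 0 and 3. The Dnmt3-deficient libraries differed widely among themselves but were all above the others. The log2 difference was 3.62 ± 0.63 (SE from the fit over all 18 libraries, n = 3 and 3, adjusted p = 0.0259). Tnip1, which binds A20 and restrains NF-kB signaling, was at 1.22, 0.0879 and 0.460 against 22.1, 11.3 and 24.9 FPKM (log2 difference 3.68 ± 0.70, adjusted p = 0.0401). Both genes were also found at earlier B lineage stages of either genotype. Dnmt3-sufficient nB held 209 to 228 FPKM of Btla and 25.3 to 38.1 of Tnip1, and Dnmt3-sufficient GCB 39.9 to 49.6 and 17.1 to 28.5. Levels in Dnmt3-deficient BMPC thus reached the GCB range of Btla in replicate 2 and that of Tnip1 in replicates 1 and 3.

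Bmyc, a relative of Myc, was at 3.79, 0 and 0.655 FPKM in Dnmt3-sufficient BMPC and at 35.7, 19.3 and 47.8 in Dnmt3-deficient BMPC (log2 difference 4.05 ± 0.64, adjusted p = 0.0103). It too was higher in Dnmt3-sufficient nB (90.2 to 101 FPKM) and GCB (51.8 to 73.0). AB124611 had 0 reads in every Dnmt3-sufficient BMPC library, and Dnmt3-deficient BMPC held 26.3, 28.1 and 23.5 FPKM of it. With each of the former set to 3 reads, the mean of the latter is at least 37.7-fold higher (adjusted p = 0.000945). Here and below, such a figure covers counting error only. It does not cover the loss of a gene's reads between libraries of one group that was described above. Its 3 Dnmt3-deficient values lay close together, near the 24.9 to 29.2 FPKM of Dnmt3-sufficient GCB and under the 112 to 138 of nB. Btla, Tnip1, Bmyc, AB124611 and also Vps4b, 5 of the 7 genes that rose, were at 17.1 FPKM or more in each Dnmt3-sufficient nB and GCB library. That value is the lowest of Tnip1 there. Of the genes that fell, Fh1, Haus7, Ccdc124 and Fam111a were above it as well, and the share over all tested genes was not counted.

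Vps4b, an ATPase that takes apart the membrane-cutting ESCRT-III complex, was at 0.278, 4.50 and 0.421 FPKM against 20.03, 30.0 and 17.3 (log2 difference 3.41 ± 0.66, adjusted p = 0.0401). Itgb5, an integrin subunit, was at 0, 0 and 0.168 FPKM in Dnmt3-sufficient BMPC and reached 5.97, 6.07 and 15.5 without the enzymes (at least 30.3-fold higher, with an adjusted p of 0.0384). Rnase2a, a ribonuclease of the eosinophil-associated family, was not read in any Dnmt3-sufficient library, whereas the Dnmt3-deficient ones gave 17.8, 26.7 and 23.0 FPKM from 20, 25 and 36 reads (at least 15.6-fold higher, with an adjusted p of 0.00055). In nB and GCB, Vps4b lay at 31.8 FPKM or above in every Dnmt3-sufficient library. Itgb5 and Rnase2a were at or near 0 there, so their reads appeared in Dnmt3-deficient BMPC without a counterpart at the earlier stages. Such values add almost no spread to the fit over all 18 libraries, which keeps the SE behind their adjusted p small. Rnase2a belongs to a family of near-identical genes, and its reads may be shared with them. Of 16 markers of eosinophils, basophils and mast cells, 10 had 0 reads in all 6 BMPC libraries, Epx and Siglecf among them, and 1, the granule protein Prg2, had 20 or more in all 6. The list summed to 2283, 1724 and 2383 FPKM in Dnmt3-sufficient and 1745, 1392 and 2041 in Dnmt3-deficient BMPC, nearly all of it Prg2, and to 62.6 or less in nB and GCB. Its part in the Rnase2a values was not tested. On mm9 these genes lie at chr16:45224428-45253008 (Btla), chr11:54724289-54776419 (Tnip1), chr2:25562399-25563237 (Bmyc), chr9:21330620-21349777 (AB124611), chr1:108660648-108693305 (Vps4b) and chr16:33829751-33949239 (Itgb5).

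Among the genes that fell, Fh1 was the one with 20 or more reads in all 6 libraries. It encodes fumarate hydratase, an enzyme of the tricarboxylic acid cycle. Fh1 was at 202, 132 and 155 FPKM in Dnmt3-sufficient BMPC (725, 821 and 916 reads) and at 30.0, 56.1 and 22.4 in Dnmt3-deficient BMPC (80, 124 and 83 reads), a log2 difference of -2.22 ± 0.40 (95% confidence interval -3.06 to -1.38, adjusted p = 0.0303). The lowest Dnmt3-sufficient value, 132 FPKM, stood well above the highest Dnmt3-deficient one, 56.1. No such separation was present in nB, at 89.0 to 122 FPKM in Dnmt3-sufficient and 91.4 to 111 in Dnmt3-deficient libraries, or in GCB, at 196 to 209 and 191 to 204.

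Other genes that fell were at or near 0 in Dnmt3-deficient BMPC. Nudt9, a hydrolase of ADP-ribose, was at 41.3, 62.1 and 56.6 FPKM in Dnmt3-sufficient BMPC and had 3 reads in Dnmt3-deficient replicate 1 (1.38 FPKM) and none in the other two (at least 39.7-fold lower, with an adjusted p of 0.0303). Bag1, a cochaperone of Hsp70 with a role in cell survival, was at 42.5, 25.1 and 49.2 against 0.454, 0 and 0.981 FPKM (at least 29.3-fold lower, with an adjusted p of 0.0108). Ccdc124 was at 61.0, 65.8 and 62.6 FPKM against 14.8, 0 and 0 (log2 difference -4.68 ± 0.87, adjusted p = 0.0384). The Dnmt3-sufficient libraries of Ccdc124 lay close together and the genotypes separated in spite of the 14.8 FPKM of Dnmt3-deficient replicate 1.

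Haus7, Ckap2 and Fam111a have known roles in division or replication. Haus7, a subunit of the augmin complex that builds the spindle, was at 21.3, 39.3 and 29.1 FPKM in Dnmt3-sufficient BMPC and had 0 reads in Dnmt3-deficient BMPC (at least 22.8-fold lower, with an adjusted p of 0.000327). Ckap2, a spindle protein, was at 4.55, 28.7 and 53.1 against 0.471, 0 and 0 FPKM (at least 41.8-fold lower, with an adjusted p of 0.0401). Fam111a, a protease that acts at replicating DNA, was at 25.8, 17.8 and 32.3 against 1.149, 3.46 and 5.79 FPKM (log2 difference -2.67 ± 0.50, adjusted p = 0.0384). Ckap2 varied widely among the Dnmt3-sufficient libraries and replicate 1 of them was low, while Haus7 and Fam111a varied less there.

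Tcn2, the carrier of vitamin B12, was at 29.7, 56.7 and 21.6 FPKM in Dnmt3-sufficient BMPC and had no reads in Dnmt3-deficient BMPC (at least 42.8-fold lower, with an adjusted p of 0.0384). Nupr1, a stress-induced nuclear protein, was at 24.7, 39.9 and 28.6 FPKM against 0 in each Dnmt3-deficient library (at least 10.9-fold lower, with an adjusted p of 0.000327). Rab38, a small GTPase of lysosome-related organelles, was at 26.0, 39.3 and 22.7 FPKM against 0 in each as well (at least 25.8-fold lower, with an adjusted p of 0.000327). Nupr1 and Rab38 were at 0 in every nB and GCB library, so among these 18 libraries their reads were found in the 3 of Dnmt3-sufficient BMPC. They had no spread in nB and GCB, which keeps the SE behind their adjusted p small. On mm9 the genes that fell lie at chr1:177530505-177555766 (Fh1), chr5:104475325-104494398 (Nudt9), chr4:40883431-40895314 (Bag1), chr8:73392126-73397389 (Ccdc124), chrX:70682654-70704383 (Haus7), chr8:23278624-23296291 (Ckap2), chr19:12620230-12664258 (Fam111a), chr11:3817195-3832162 (Tcn2), chr7:133766763-133770524 (Nupr1) and chr7:95578783-95639976 (Rab38).

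**Figure D1:**
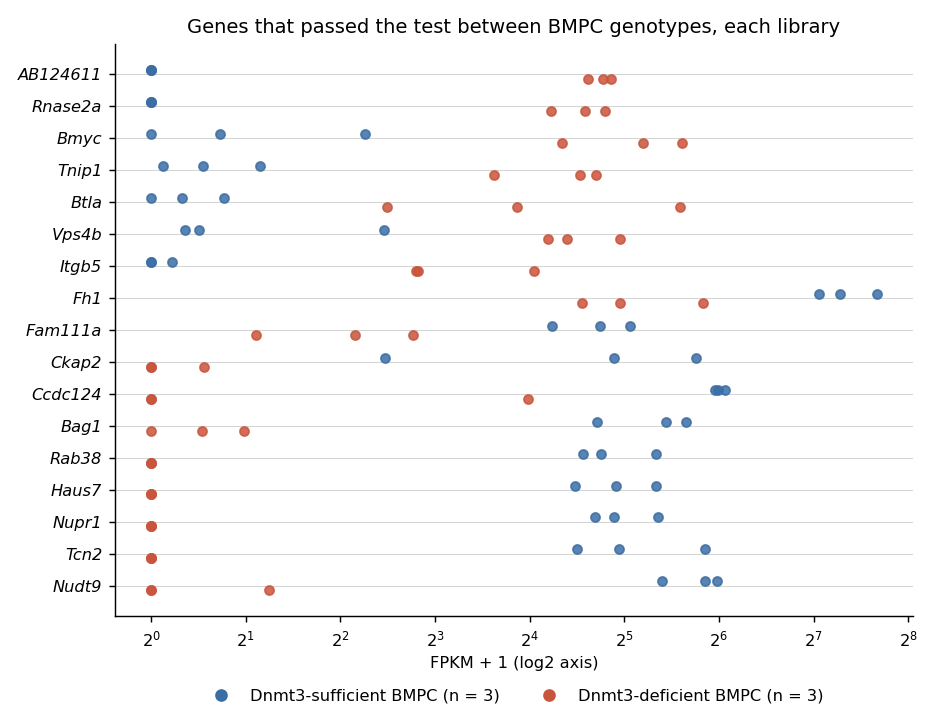
Level of the 17 genes that passed the test between BMPC genotypes, as FPKM + 1 on a log2 axis, with 1 point per library (blue Dnmt3-sufficient, red Dnmt3-deficient, n = 3 each). The top 7 genes rose and the lower 10 fell in Dnmt3-deficient BMPC, no gene's points overlap between the genotypes, and Fh1 alone has 22.4 FPKM or more in all 6 libraries.

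Promoters of genes that moved in either direction are shown because the missing enzymes act on CG dinucleotides. Each is the RefSeq window of GRCm38.p6 from 250 bases before to 50 bases after the most upstream start that its promoter table gives for the gene, on the strand of the gene and 5′ to 3′, with each CG in capitals. The same letters were found once on the gene's own chromosome in mm9, the genome to which the reads had been mapped. Other chromosomes were not searched. Btla lies at chr16:45224200-45224499 (+) and Bmyc at chr2:25562149-25562448 (+), and both rose. The Nudt9 window lies at chr5:104475633-104475932 (+) and Fh1 at chr1:177555717-177556016 (-), and both genes fell. The gene bodies given above came from another annotation, and by that one the windows of Nudt9, Fam111a and Nupr1 lie within the gene, downstream of its outermost start.
Btla: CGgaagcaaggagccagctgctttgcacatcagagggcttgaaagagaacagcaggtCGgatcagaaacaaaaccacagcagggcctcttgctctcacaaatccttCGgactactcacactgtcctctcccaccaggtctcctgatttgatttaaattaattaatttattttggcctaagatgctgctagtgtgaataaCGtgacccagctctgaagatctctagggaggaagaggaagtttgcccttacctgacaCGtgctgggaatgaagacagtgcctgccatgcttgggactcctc
Bmyc: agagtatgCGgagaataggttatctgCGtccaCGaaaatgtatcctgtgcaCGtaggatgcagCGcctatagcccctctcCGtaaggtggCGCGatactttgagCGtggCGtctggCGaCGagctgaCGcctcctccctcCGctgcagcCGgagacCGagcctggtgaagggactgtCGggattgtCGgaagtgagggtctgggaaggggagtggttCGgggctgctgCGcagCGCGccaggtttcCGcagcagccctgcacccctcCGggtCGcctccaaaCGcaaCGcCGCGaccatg
Nudt9: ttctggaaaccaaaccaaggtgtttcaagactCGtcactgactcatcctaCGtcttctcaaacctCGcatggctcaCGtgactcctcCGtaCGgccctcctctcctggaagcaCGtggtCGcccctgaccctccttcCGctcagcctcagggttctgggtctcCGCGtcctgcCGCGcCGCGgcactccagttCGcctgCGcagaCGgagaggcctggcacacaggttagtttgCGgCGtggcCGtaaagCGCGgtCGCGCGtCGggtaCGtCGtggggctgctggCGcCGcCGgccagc
Fh1: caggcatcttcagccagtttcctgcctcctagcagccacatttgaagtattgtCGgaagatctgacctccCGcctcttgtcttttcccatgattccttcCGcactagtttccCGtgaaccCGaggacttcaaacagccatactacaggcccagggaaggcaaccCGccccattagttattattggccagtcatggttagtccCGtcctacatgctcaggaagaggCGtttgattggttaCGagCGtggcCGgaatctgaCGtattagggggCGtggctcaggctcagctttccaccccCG

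The Btla window held 5 CG and those of Bmyc, Nudt9 and Fh1 held 29, 32 and 14. A promoter was found for 8738 of the 11522 tested genes, with a median of 21 CG in 300 bases and a range of 0 to 65. Promoters of the 7 genes that rose held 2 to 29 CG with a median of 6, in the order Rnase2a (2), Tnip1 (4), Btla (5), AB124611 (6), Vps4b (15), Itgb5 (20) and Bmyc (29). Those of 8 of the 10 genes that fell held 6 to 32 with a median of 19.5. At most 6 CG, a number chosen after the values were seen, were held by 4 of 7 promoters of genes that rose and 1 of 8 of genes that fell, against 12.8% of all tested genes with a promoter. Genes with few CG were thus found among the few that rose. Of well covered genes whose genotypes did not overlap, 14.3% of the higher and 5.03% of the lower had such promoters, against 7.62% of all well covered genes. These shares were not tested. Methylation of these windows was not analysed here.

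Well covered genes, with 20 or more reads in every library, give the comparison that depends least on detection. In all 6 libraries 2760 genes met this, and they held 84.4% of BMPC reads. A further 1378 met it in Dnmt3-sufficient BMPC only and 588 in Dnmt3-deficient BMPC only. At equal depth these numbers were 2490, 964 and 688, so the excess in Dnmt3-sufficient BMPC was smaller when depth was made equal. Among the 2760 genes, the median SD of log2(FPKM + 1) over the Dnmt3-sufficient libraries was 0.49, that over the Dnmt3-deficient ones was 0.52, and the median absolute difference between genotypes was 0.45. The SDs are of single libraries and the difference is between means of 3, so these values cannot be set directly against each other.

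Of these 2760 genes, 146 were higher in each Dnmt3-deficient library than in every Dnmt3-sufficient one (5.29%) and 397 were lower (14.4%). Over all 11522 genes tested, 348 were higher without overlap (3.02%) and 842 were lower (7.31%). The lower genes outnumbered the higher ones mainly at high levels. Of 4 equal bins of well covered genes by level, the highest began at a mean of 132.75 FPKM, and in it 198 of 690 were lower without overlap (28.7%) and 37 were higher. In the lowest bin, 45 were lower and 45 higher, and the median differences of the bins ran from 0.08 to -0.31 with rising level. The balance also moved with the scaling, since a median of ratios over the 6 BMPC libraries gave 468 higher and 630 lower among all tested genes.

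**Figure D2:**
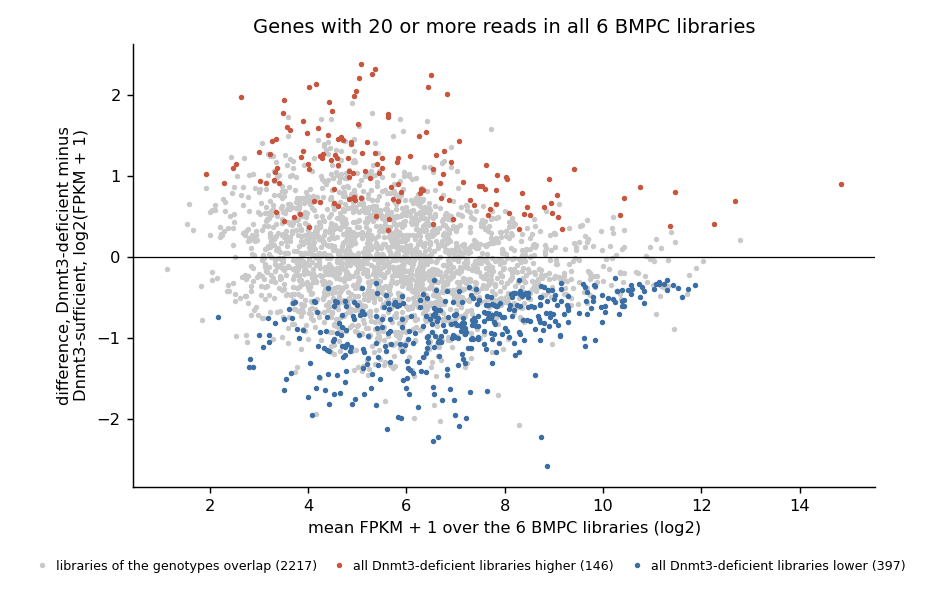
Genotype difference on the log2(FPKM + 1) scale against mean level (log2) for the 2760 genes with 20 or more reads in all 6 BMPC libraries, each point a gene. Colored points are the 146 genes higher (red) and the 397 lower (blue) in every Dnmt3-deficient library, and the blue points gather at high levels.

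Among well covered genes higher without overlap, the 8 with the largest differences are given here, and none of them passed the test. Cept1, which makes phosphatidylcholine and phosphatidylethanolamine, was at 15.3, 3.13 and 16.1 FPKM in Dnmt3-sufficient and 53.1, 60.4 and 48.2 in Dnmt3-deficient BMPC (log2 difference 2.38, adjusted p = 0.19). Lman1, a cargo receptor between ER and Golgi, was at 5.52, 34.6 and 4.01 against 39.4, 58.8 and 47.3 FPKM (2.22, adjusted p = 0.628). Grn, the lysosomal progranulin, was at 15.03, 44.97 and 34.5 against 184, 82.2 and 180 FPKM (2.25). In each of these genes the Dnmt3-deficient libraries were all above the others, while the Dnmt3-sufficient libraries varied widely.

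The gap was narrow for Lman1, where 34.6 stood next to 39.4. The other 5 follow by their ranges. Saraf, a brake on store-operated calcium entry, was at 5.99 to 19.11 FPKM in Dnmt3-sufficient and 50.3 to 86.7 in Dnmt3-deficient BMPC. St13, a cochaperone of Hsc70, was at 3.03 to 30.5 against 51.1 to 70.8 FPKM, and Atg3, which conjugates lipid to the autophagy protein LC3, at 1.95 to 9.52 against 16.0 to 35.4. Tlk1, a kinase of chromatin assembly, was at 3.48 to 8.21 against 22.4 to 30.8 FPKM. Cxcr6, the receptor for Cxcl16, was at 76.2, 24.9 and 14.1 FPKM against 129, 128 and 141, so that its Dnmt3-deficient libraries lay close together.

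At the other end were globins and other erythroid genes. Hbb-bs, a beta globin, was at 729, 578 and 957 FPKM in Dnmt3-sufficient and 342, 111 and 47.7 in Dnmt3-deficient BMPC, and Hba-a2, an alpha globin with a near-identical copy, at 424, 517 and 1047 against 413, 119 and 44.4. Tspo2, an erythroid membrane protein, was at 97.4 to 189 against 20.3 to 55.0 FPKM, and Rhd, a blood group protein, at 182 to 334 against 38.9 to 92.6. The lower level of these genes went with the lower sum of erythroid markers, and Dnmt3-deficient replicate 1 was the one nearest to the Dnmt3-sufficient libraries.

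Beside Fh1, 3 of the lower genes were of another kind. Parp2, a DNA damage sensor, was at 83.3, 63.0 and 81.1 against 24.3, 6.95 and 25.5 FPKM (log2 difference -2.12). Aimp2, a scaffold of the tRNA synthetase complex, was at 225, 264 and 155 against 85.3, 27.4 and 49.2 (-2.08). Mrpl50, a protein of the mitochondrial ribosome, was at 69.7, 96.1 and 105 against 28.0, 7.37 and 46.4 (-1.99). Each was lowest in Dnmt3-deficient replicate 2, the shallowest library, and none passed.

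By gene function, 46 lists were described by how many of their tested genes separated the genotypes without overlap, beside 3.02% higher and 7.31% lower over all tested genes. A gene that passed the test was present in 2 lists, with Tnip1 under NF-kB and Btla under cytokine and costimulation receptors. Summed FPKM was higher in every Dnmt3-deficient library for 4 lists and lower for 11. Under a median of ratios over the 6 BMPC libraries the 4 stayed higher and 5 of the 11 stayed lower. In total 11 lists were higher and 5 lower under that scaling, so the balance between directions turned with it.

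Genes of plasma cell identity tended to higher levels in Dnmt3-deficient BMPC. Levels are shares of a library, so more plasma cells among those sorted and more RNA per plasma cell cannot be told apart. Of 20 tested, 5 were higher without overlap (25%) and 1 was lower, with a median difference of 0.62 against -0.05 over all tested genes, and none passed. Their summed level was 32141, 26193 and 20532 FPKM in Dnmt3-sufficient and 45611, 54932 and 37898 in Dnmt3-deficient BMPC. Most of that sum was Jchain, which links antibody units into polymers, at 25611, 20147 and 16189 FPKM against 39020, 46609 and 29771. Jchain alone took 5.38%, 4.23% and 3.40% of the reads in Dnmt3-sufficient libraries and 8.20%, 9.80% and 6.26% in Dnmt3-deficient ones (exact permutation test, two-sided, p = 0.1, the smallest possible). The gene did not pass (log2 difference 0.90 ± 2.37, adjusted p = 1), with an SE estimated over all 18 libraries.

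The other genes of plasma cell identity with higher levels were moderate in size. Cd28, a costimulatory receptor used by plasma cells for survival, was at 22.9, 26.7 and 28.6 FPKM against 58.2, 72.2 and 56.8 (1.22). Tnfrsf17, the survival receptor BCMA, was at 465, 482 and 173 against 523, 516 and 518, and its Dnmt3-deficient libraries were nearly alike. Mzb1, a chaperone of antibody assembly, was at 2622, 2370 and 1908 against 2758, 3390 and 2792, and Ly6c2, a surface protein, at 1516, 1162 and 976 against 1608, 2388 and 2678. Transcription factors of the program showed no common direction. Irf4 was at 37.3, 55.2 and 44.1 FPKM in Dnmt3-sufficient and 14.5, 0.315 and 27.9 in Dnmt3-deficient BMPC (-2.46, adjusted p = 0.63), while Prdm1, at 0.838, 14.5 and 6.14 against 23.8, 45.2 and 7.15, and Xbp1, at 716, 738 and 559 against 622, 835 and 743, overlapped.

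Abundant genes of antigen presentation also lay higher. Of 11 tested genes of MHC class II, which presents peptides to helper T cells, 3 were higher without overlap (27.3%) and none lower. Cd74, the invariant chain, was at 6402, 4890 and 3877 FPKM in Dnmt3-sufficient and 7084, 7532 and 9612 in Dnmt3-deficient BMPC (0.69 ± 0.20, adjusted p = 0.238), and Ctss, the protease that trims it, at 1216, 1036 and 869 against 1852, 1620 and 1684. H2-Aa was at 37.5, 35.8 and 37.5 against 57.8, 51.1 and 115. The partner chains did not follow, with H2-Ab1 at 305, 197 and 108 against 188, 114 and 451 FPKM and H2-Eb1 at 138, 134 and 23.5 against 83.6, 17.1 and 139, and their regulator Ciita had no reads. The macrophage gene Cd68 also had its Dnmt3-deficient libraries higher, at 44.7, 87.6 and 40.5 FPKM against 98.4, 158 and 145, and the sum of 14 macrophage and monocyte markers was 182, 169 and 205 FPKM against 191, 390 and 523. Its part in these values was not tested.

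For MHC class I, 2 of 13 genes were higher without overlap (15.4%). B2m, the common light chain, was at 2216, 1960 and 1977 FPKM against 3576, 3865 and 3323 (0.81 ± 0.29, adjusted p = 0.446), and H2-D1, a heavy chain with near-identical relatives, at 681, 656 and 147 against 774, 804 and 1030. The median over the 13 was -0.07, so the higher sum of 5868 to 6393 FPKM against 3853 to 4692 rested on the abundant members. Of 40 genes of B cell receptor signaling, 3 were higher (7.5%) and 4 lower (10%) without overlap, so the list had no common direction. The genes named next are the higher ones, and none of the 4 lower ones had 20 or more reads in all 6 libraries. Cd81, a tetraspanin of the B cell surface, was at 242, 394 and 337 FPKM against 500, 619 and 784 (0.97), and Rasgrp3, an activator of Ras, at 8.13, 12.9 and 15.4 against 26.1, 46.4 and 18.6. Lyn, a Src family kinase, was at 7.77, 0 and 8.77 against 42.2, 30.3 and 18.01 (2.74, adjusted p = 0.175).

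For the machinery of secretion the medians were slightly above 0. Of 30 genes of ER translocation and N-glycosylation, 5 were higher without overlap (16.7%) and 2 lower. Ssr1 and Spcs2, of the translocon and the signal peptidase, were at 146, 173 and 176 against 200.8, 270 and 284 FPKM and at 372, 340 and 423 against 492, 677 and 645. Ddost, a subunit of the oligosaccharyl transferase, went the other way, at 33.9, 108 and 135 against 26.0, 22.5 and 33.3. Coat and transport genes between ER and Golgi had 3 of 28 higher without overlap (10.7%), among them Cope at 288, 239 and 287 against 354, 386 and 531 FPKM and the coat GTPase Arf1 at 208, 155 and 158 against 234, 335 and 257. ER chaperones had 2 of 22 (9.09%) and the unfolded protein response 1 of 21 (4.76%). Medians of these 4 lists were 0.13 to 0.19, and no member passed.

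Genes of protein synthesis and of the mitochondrion lay lower in Dnmt3-deficient BMPC. Of 83 genes of the cytosolic ribosome, 56 were lower without overlap (67.5%) and none higher, with a median difference of -0.42. With the deposited totals no member had a difference above 0, though 1 was higher without overlap under a median of ratios over the 6 BMPC libraries, and none passed, the smallest adjusted p being 0.411. Rps2 was at 291, 337 and 233 FPKM in Dnmt3-sufficient and 147, 133 and 139 in Dnmt3-deficient BMPC, and Rpl12 at 1043, 1052 and 998 against 706, 375 and 522. Summed, they held 122470, 114692 and 125146 FPKM against 98511, 78445 and 102619. Of the 83, 76 were in the bin of highest level, where 28.7% of genes were lower, and many have processed pseudogenes that can share their reads.

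Of 76 genes of the mitochondrial ribosome, 24 were lower without overlap (31.6%) and none higher, with a median of -0.61. Mrpl27 was at 219, 196 and 161 FPKM against 117, 44.5 and 21.8, and Mrpl18 at 791, 687 and 721 against 400, 268 and 474. Of 78 genes of oxidative phosphorylation, 30 were lower (38.5%), with a median of -0.45. Sdha, the catalytic subunit of complex II and thus the enzyme before fumarate hydratase in the tricarboxylic acid cycle, was at 108, 78.0 and 96.0 FPKM against 60.8, 23.7 and 29.0 (-1.40 ± 0.40, adjusted p = 0.261). Uqcr10, of complex III, was at 546, 436 and 545 against 306, 229 and 293. Both lists had sums that were lower in every Dnmt3-deficient library, at 8090, 8077 and 9465 against 6527, 4930 and 5980 FPKM for the former and 31247, 30460 and 34042 against 26327, 20778 and 25566 for the latter.

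Of 38 proteasome genes, 10 were lower without overlap (26.3%), with a median of -0.40. Psma2, a subunit of the catalytic core, was at 736.4, 653 and 790 FPKM against 403, 256 and 498. The bin of highest level, where 28.7% of genes were lower, held 22 of 34 well covered proteasome genes. It also held 61 of 73 such genes of oxidative phosphorylation and 20 of 55 of the mitochondrial ribosome. With the median of ratios over the 6 BMPC libraries, 31 genes of the cytosolic ribosome, 18 of oxidative phosphorylation, 17 of the mitochondrial ribosome and 5 of the proteasome were lower. With a library total that left out the 10 genes most abundant on average over the 6 BMPC libraries, these were 39, 21, 18 and 6. Each library's own 10 most abundant genes held 20.2%, 17.1% and 14.8% of reads in Dnmt3-sufficient and 23.4%, 25.8% and 23.9% in Dnmt3-deficient BMPC. Sums of the cytosolic ribosome and the proteasome overlapped between genotypes under the former scaling, and those of oxidative phosphorylation and the mitochondrial ribosome did not. The erythroid sum was lower with the deposited totals and overlapped between genotypes under both of these scalings, where 2 in place of 3 of its 9 tested genes were lower without overlap. Its part in these lists was not tested.

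**Figure D3:**
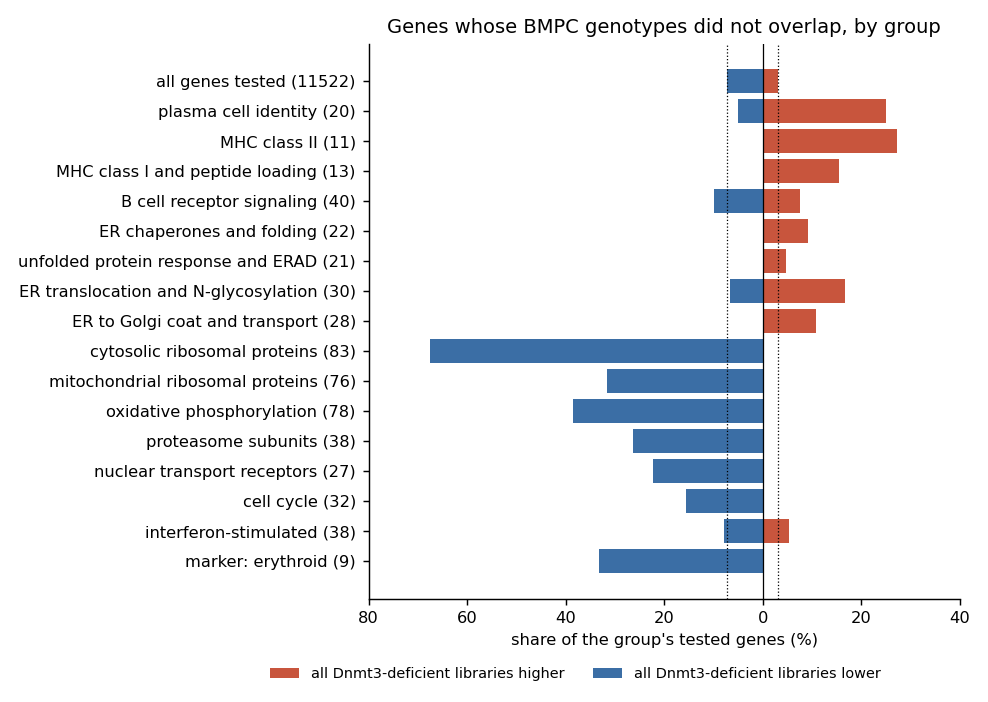
Share (%) of the tested genes of each list whose 3 Dnmt3-deficient BMPC libraries were all above (red, right) or all below (blue, left) the 3 Dnmt3-sufficient ones, with the number of tested genes in parentheses and the shares over all tested genes as dotted lines. Cytosolic ribosomal proteins reach 67.5% lower, while MHC class II and plasma cell identity reach 27.3% and 25% higher.

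**Figure D4:**
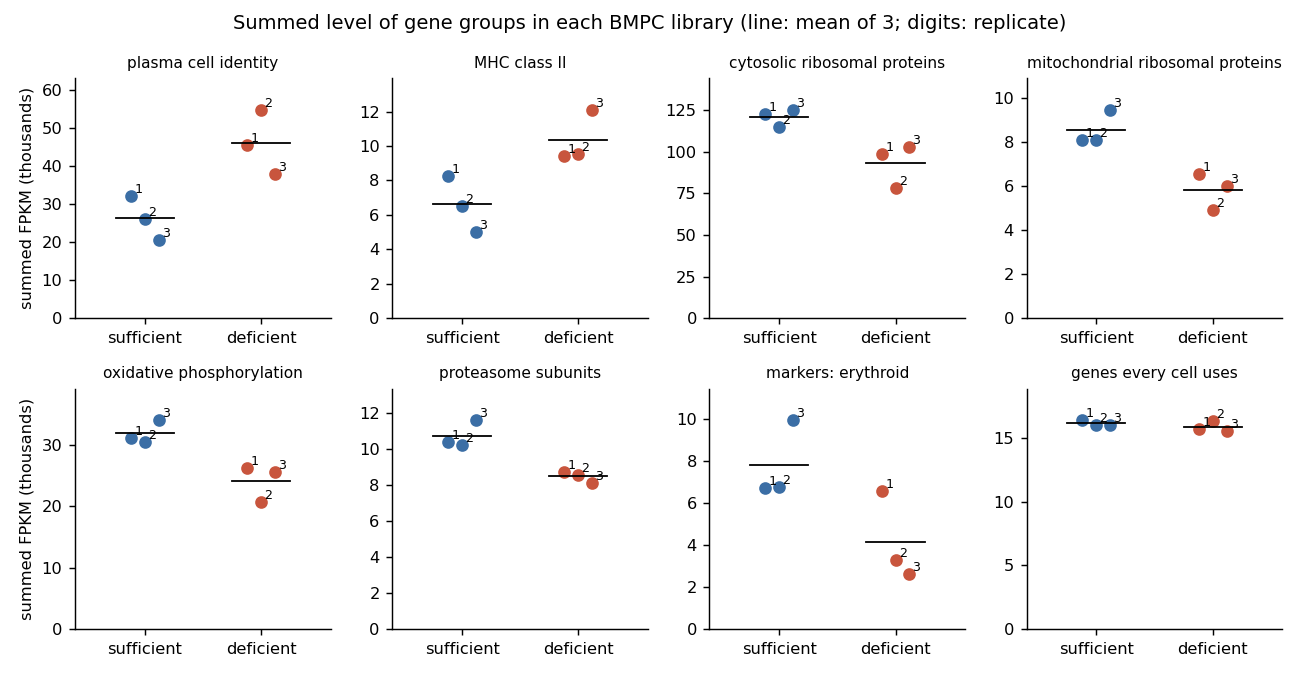
Summed FPKM of 8 lists in each BMPC library, with points numbered by replicate and a line at the mean of the 3 libraries. With the deposited totals the genotypes separate for plasma cell identity, MHC class II, both ribosomal lists, oxidative phosphorylation and proteasome subunits. They also separate for erythroid markers, by a narrow gap that other scalings close, and overlap for genes every cell uses. Under a median of ratios over the 6 BMPC libraries, cytosolic ribosomal proteins and proteasome subunits overlap as well.

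Cell cycle and nuclear transport genes had medians below 0. Of 32 cell cycle genes, 5 were lower without overlap (15.6%) and none higher, with a median of -0.74. Rrm2, which supplies deoxynucleotides, was at 245, 347 and 378 FPKM in Dnmt3-sufficient and 162, 188 and 144 in Dnmt3-deficient BMPC, and Mcm6, of the replicative helicase, at 37.9, 30.7 and 36.4 against 17.3, 22.0 and 7.48. Of 27 genes of nuclear transport, 6 were lower (22.2%), with a median of -0.65. Ran, the GTPase that drives it, was at 602, 611 and 496 FPKM against 341, 331 and 250, and Nutf2, which carries Ran into the nucleus, at 169, 222 and 222 against 116, 48.1 and 94.6. Sums of both lists were lower in every Dnmt3-deficient library under either scaling.

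Genes often silenced by DNA methylation were mostly not detected. Of 43 germline genes, 33 had no reads in the 6 BMPC libraries, and of the 12 tested 1 was higher without overlap. Of 42 imprinted genes, 22 had no reads, and 1 of the 17 tested was higher. Of 287 tested zinc finger genes of the Zfp series, 6 were higher (2.09%) and 12 lower (4.18%), below the shares over all tested genes in both directions. Of 15 tested writers, erasers and readers of DNA methylation, Uhrf2 and Mbd3 were lower without overlap, Mbd3 at 11.7, 41.02 and 13.0 FPKM against 3.66, 4.85 and 2.90. Of 38 interferon-stimulated genes, 2 were higher and 3 lower, with Ly6e at 1087, 992 and 1081 against 1372, 1312 and 1928 FPKM. Genes every cell uses served as a reference, 1 of 18 being higher (5.56%) and 5 lower (27.8%) without overlap. The lower shares of the proteasome (26.3%), nuclear transport (22.2%) and cell cycle (15.6%) lists did not exceed that 27.8%. The sum of the reference genes was 16418, 16024 and 16093 FPKM against 15752, 16358 and 15612. Under a median of ratios over the 6 BMPC libraries, that sum was higher in every Dnmt3-deficient library.

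Markers of other bone marrow cells varied by library. All 10 erythroid markers of the list were detected, 6 of them with 20 or more reads in all 6 libraries, and 3 of 9 tested, the globins Hba-a2 and Hbb-bs among them, were lower without overlap. Neutrophil markers summed to 566, 110 and 195 FPKM in Dnmt3-sufficient and 21.3, 701.5 and 602 in Dnmt3-deficient BMPC, a range that differed more by library than by genotype. Early B cell markers summed to 793, 734.3 and 861 against 511, 910 and 551 FPKM, of which Dntt, the polymerase that adds bases at antigen receptor joins, gave 329, 330 and 581 against 315, 450 and 305. T and NK cell markers, at 160 to 364 against 174 to 316, and plasmacytoid dendritic cell markers, at 175 to 242 against 187 to 306, overlapped as well. Megakaryocyte markers were at 11.4 FPKM or less.

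Genes covered in one genotype only, other than those that passed, are given as a description. Gnptg, of the enzyme that tags lysosomal proteins, was at 12.4, 0 and 0.198 FPKM in Dnmt3-sufficient and 31.7, 83.2 and 32.6 in Dnmt3-deficient BMPC, and Dbr1, which opens intron lariats, at 1.73, 0 and 0.131 against 21.3, 25.3 and 27.7. Gorab, a Golgi protein, was at 16.0, 28.8 and 29.4 against 0, 0 and 0. All Dnmt3-deficient libraries had 3 reads or fewer in 37 of the 1378 genes covered in Dnmt3-sufficient BMPC only, and all Dnmt3-sufficient libraries in 17 of the 588 covered in Dnmt3-deficient BMPC only.

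The lists that stood out in BMPC were then read in the other cell types. Median differences of the cytosolic ribosome, mitochondrial ribosome, oxidative phosphorylation and proteasome were -0.01, 0.01, -0.03 and -0.02 in nB and -0.13, -0.21, -0.18 and -0.16 in GCB, against -0.42, -0.61, -0.45 and -0.40 in BMPC. Plasma cell identity and MHC class II were at -0.03 and -0.05 in nB and -0.14 and -0.11 in GCB, against 0.62 and 0.69 in BMPC. Not every list was near 0 in nB, where interferon-stimulated genes had a median of -0.52 with 11 of 38 lower without overlap, against -0.03 in BMPC, and cell cycle and nuclear transport genes had medians of 0.16. Over all tested genes, 4.66% were higher and 4.17% lower without overlap in nB and 5.58% and 5.05% in GCB. Of the ribosomal genes, 0 of 83 were lower without overlap in nB and 4 in GCB, against 56 in BMPC. Differences between the cell types were tested for single genes and not for lists.

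**Figure D5:**
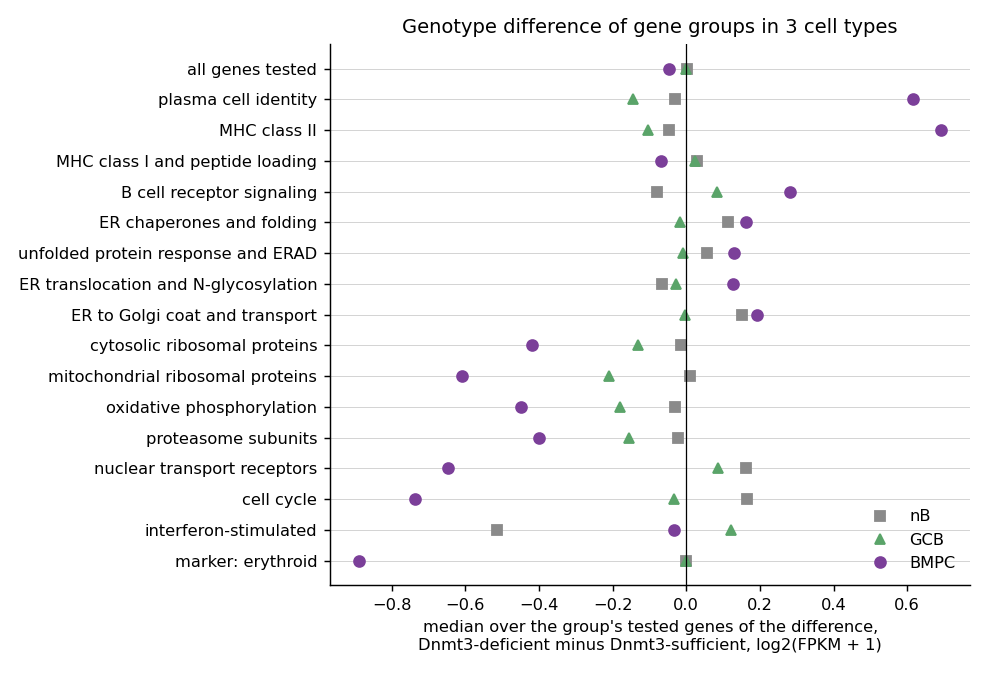
Median over the tested genes of each list of the difference between genotypes (Dnmt3-deficient minus Dnmt3-sufficient, log2(FPKM + 1)) in nB (squares), GCB (triangles) and BMPC (circles). Plasma cell identity and MHC class II lie at 0.62 and 0.69 in BMPC and at -0.14 to -0.03 in the other cell types, and erythroid markers lie at -0.89 in BMPC.

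None of the 17 genes that passed in BMPC passed in nB or GCB. By the test of the difference itself, the effect of genotype in BMPC differed from that in nB for 12 genes (0.104% of those tested) and from that in GCB for 8 (0.0694%). Bmyc, AB124611 and Haus7 were among both. So were Rnase2a, Nupr1 and Rab38, but these had 0 reads in all nB and GCB libraries, so their values restate the difference in BMPC and show nothing of the genotypes at the earlier stages. Haus7 was found at every stage, with 28.6 to 42.6 FPKM in Dnmt3-sufficient nB and 53.9 to 66.2 in GCB beside its 21.3 to 39.3 in BMPC, and its genotype difference of -4.91 in BMPC stood apart from that in nB by -4.67 and from that in GCB by -4.81. Fam111a, at 119 to 151 FPKM in nB and 111 to 121 in GCB, fell in BMPC, but the difference between cell types did not pass for it.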

How the data were processed

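RNA was measured by RNA-seq in 18 libraries, of which the 6 BMPC libraries are described here. cDNA was made and amplified by PCR without molecular identifiers. Per the study's methods, the authors mapped reads with TopHat to mm9, counted them on exons of UCSC KnownGenes with summarizeOverlaps and computed FPKM. The submitters' processing notes name Picard, R 3.2.2 and edgeR 3.12.1. Strand use in counting is not given in the sources used here, so overlapping and antisense genes are uncertain. The deposited FPKM values and exon lengths were used. The deposited log2 fold changes and FDR hold the authors' own comparisons and were not used, and 0 columns belonged to no library.

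FPKM times exon length gave whole reads for 100% of values within 0.01 reads. Groups and sex came from the labels. The test was limma 3.58.1 (R 4.3.3) on log2(FPKM + 1), which understates changes of low genes, with 1 mean per group over 18 libraries, a weight per cell type because BMPC libraries spread more, an intensity trend, and the Benjamini-Hochberg method. It was run on 11522 genes, those that exceeded an FPKM of 1 in 2 or more libraries. SEs and confidence intervals (95%) are from this fit. Single values were compared by exact permutation. At least N-fold was computed from the mean of the high group with each library of the low group at 3 reads, which covers counting error only. Named genes were those that passed, the 8 with the largest difference in each direction by coverage class, the 15 most abundant, and list members. Some genes that this rule names are not reported here. Members and lists were chosen with earlier results of these data known. Promoters were read from RefSeq, and mm9 positions of genes came from the annotation by unique symbol. The fit was tested on simulated data.

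Alternatives were no weights, a weight per library, BMPC alone, a pseudocount of 0.1, no filter, a mean of 20 reads, median of ratios scaling, thinned reads, voom, sex, an adjusted p of 0.01, no minimum change and leaving out each library. BMPC alone with a mean of 20 reads, median of ratios over BMPC, the total without the 10 most abundant genes, and list counts on thinned reads or without a library were chosen after seeing the data.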

Additional observations from a re-analysis of the deposited data

Results flagged for a closer look

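The results below stood out because the difference between genotypes in BMPC, Dnmt3-deficient minus Dnmt3-sufficient on the log2(FPKM + 1) scale, was itself different from that in nB or GCB by the same limma fit and adjustment. Against nB, it was higher by 4.65 for AB124611, 4.54 for Rnase2a, 4.46 for Bmyc and 3.95 for Btla. It was lower for Tcn2 (-6.00), Ckap2 (-5.80), Nupr1 (-4.98), Rab38 (-4.88), Haus7 (-4.67) and Bag1 (-4.62). Snord49a (-7.36) and Prf1 (-6.33) also passed against nB, though neither passed between the BMPC genotypes, and Snord49a was not covered by 20 reads in every library of either genotype. Against GCB, it was higher by 4.59 for AB124611, 4.54 for Rnase2a, 4.37 for Bmyc and 4.03 for Tnip1. It was lower for Nudt9 (-5.55), Nupr1 (-4.98), Rab38 (-4.88) and Haus7 (-4.81). Adjusted p-values of these differences ran from 0.000715 for Nupr1, Haus7 and Rab38 to 0.0494 for Nudt9 and Tnip1, both against GCB. Rnase2a, Nupr1 and Rab38 had 0 reads in all 12 nB and GCB libraries, so their values here equal the difference in BMPC and do not show that genotype acts differently between cell types. The same BMPC libraries enter both contrasts, so the 2 sets of values are not independent.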

How the results depend on the processing

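The 17 genes that passed between BMPC genotypes became 459 without weights, 45 without a filter, 29 with a pseudocount of 0.1, 8 with voom on recovered reads, 5 with a mean of 20 or more reads and 5 at an adjusted p of 0.01. With limma on the 6 BMPC libraries alone there were 0 (688 genes at an unadjusted p under 0.05), and 0 with a mean of 20 or more reads as well (575, smallest adjusted p 0.231). Leaving out each library gave 12 to 47 genes, the most without Dnmt3-deficient replicate 1. Of 20 alternatives, 18 kept AB124611, Haus7, Nupr1 and Rab38, 10 kept Fh1 and 8 kept Ccdc124, Ckap2 and Tcn2. None of the 17 changed direction, but as their genotypes do not overlap, leaving out a library could not turn it. The 14 genes that differed between BMPC and nB or GCB became 71 without weights, 25 with a pseudocount of 0.1 and 3 with voom. Of 4040 values of 202 other named genes under an alternative, 31 passed, 26 of these without weights, and 11 changed direction. Those were, under median of ratios over 18 and over 6 libraries, Eef1a1 (0.130 and 0.135), Rps14 (0.0412 and 0.0458) and Cxcr4 (0.0766 and 0.0813). With a library left out, Cxcr4 ran from -0.482 to 0.417, being 0.417 without Dnmt3-deficient replicate 1 and 0.128 with Dnmt3-sufficient replicate 2 gone. Pou2af1 ran from -0.0822 to 0.996 and Derl3 from -0.0676 to 0.838, both lowest without Dnmt3-sufficient replicate 3, and Tnfrsf13b from -0.339 to 1.07, lowest without Dnmt3-deficient replicate 2. The cause was not tested. With one BMPC library left out, 57 to 70 cytosolic ribosomal genes were lower without overlap and 5 to 8 genes of plasma cell identity higher. Fewer libraries separate more easily. Over all tested genes, 5.47% to 7.16% were then higher and 10.1% to 13.1% lower, against 3.02% and 7.31% with all 6 libraries. No paired analysis was possible because the BMPC labels carry no shared replicate numbers. Depth of BMPC limits what can be said of low genes.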
